A study of Mus musculus with 8 samples.

Results

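The intermediate filament genes of neurons, progenitors and glia were examined in the mouse cortex at postnatal day 1 (P1), in 4 control and 4 dcKO_Nex-Cre samples. The group holds 9 genes, *Prph*, *Nefl*, *Nefm*, *Nefh*, *Ina*, *Vim*, *Nes*, *Gfap* and *Synm*, out of 48709 genes listed in the count files, and all 9 had enough counts to be tested among 16287 genes. The family was chosen by a measured value, the lower *Prph* count of the mutant in these same libraries, and its other 8 genes were added by name. The difference between the groups is therefore given for all 9 genes as a description, and nothing is supported with it. The dcKO_Nex-Cre mice carried floxed BAF155 (*Smarcc1*) and floxed BAF170 (*Smarcc2*) together with Nex-Cre, which deletes both genes in postmitotic principal neurons and leaves them in glia, progenitors and interneurons. The controls were heterozygous (BAF155fl/+, BAF170fl/+) and Cre negative, which leaves the Cre allele to the mutant alone, and both groups were of a C57BL6/J background. RNA came from whole cortical tissue, and in such bulk samples fewer cells of a type cannot be told apart from less RNA per cell. The sources used here do not say whether a sample was a single animal, so the spread between libraries may in part be technical.

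Intermediate filaments are rope-like polymers that give a cell mechanical strength, and their subunits differ between cell types and stages. Radial glia and other progenitors build filaments of vimentin (*Vim*) and nestin (*Nes*). Young neurons switch to alpha-internexin (*Ina*) and then add the light, medium and heavy neurofilament subunits (*Nefl*, *Nefm*, *Nefh*), the heavy one last, as axons mature and widen. Astrocytes use vimentin and the glial fibrillary acidic protein (*Gfap*). Peripherin (*Prph*) is best known from neurons of the peripheral nervous system and from neurons whose axons leave the brain or spinal cord, and synemin (*Synm*) is a large partner that joins vimentin, desmin or neurofilament polymers. Vimentin, peripherin and the glial fibrillary acidic protein belong to the type III class, whose members can polymerize on their own.

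Total counts ranged from 17958641 to 35191912 per library, and values are given as CPM, counts scaled to a common depth by the total on tested genes and edgeR's TMM factor. *Smarcc2* was at 429 to 486 CPM in the control and at 241 to 292 CPM in the dcKO_Nex-Cre libraries, and *Smarcc1* at 139 to 164 and 93.04 to 122 CPM, so that for both targeted genes every mutant library lay below every control library. Such a gap downwards was found for 4.01% of all tested genes. Both were called lower at an adjusted p under 0.05 (edgeR). With each of the 8 libraries left out singly, *Smarcc2* was called 8 times and *Smarcc1* 2 times. All 8 listed markers of cortical excitatory neurons were measured, at a summed level of 1606 to 1869 CPM in the control and 1364 to 1594 CPM in the mutant; *Neurod6* among them was lower in the mutant (log2 fold change -0.74, SE 0.12, adjusted p = 0.0192 from edgeR), a call that held for 3 of the 8 libraries when left out singly. *Neurod6* is the locus whose promoter drives Nex-Cre, an allele that only the mutant carries. The part of that allele in the lower *Neurod6* value was not tested. Across all genes, edgeR's quasi-likelihood test called 144 at an adjusted p of 0.05, 83 lower and 61 higher in the dcKO_Nex-Cre cortex. Control replicate 2 and dcKO_Nex-Cre replicate 4 stood apart with 6.87% and 6.15% of their counts on mitochondrial genes, against 2.33% to 4.24% in the other 6 libraries. The 4 control libraries and dcKO_Nex-Cre replicates 1 and 2 carry lane tag 2 in their file names, and dcKO_Nex-Cre replicates 3 and 4 carry lane tag 8. The second lane holds no control. Within lane tag 2, *Smarcc2* was still called (edgeR, adjusted p = 0.0163) and *Smarcc1* was not (edgeR, adjusted p = 0.0752). *Smarcc1* was also not called with the replicate number as a block (edgeR, adjusted p = 0.0578).

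Peripherin was the member with the widest gap between the groups. *Prph* (ENSMUSG00000023484, chromosome 15 of GRCm38, 99055174 to 99058978, plus strand) had 77, 40, 72 and 61 counts in control replicates 1 to 4 and 24, 15, 14 and 7 counts in dcKO_Nex-Cre replicates 1 to 4. Scaled values ran 3.53, 2.19, 3.004 and 2.69 CPM over the controls and 0.70, 0.57, 0.58 and 0.39 CPM over the mutants. The highest mutant library thus lay below the lowest control library. The control mean was 2.85 ± 0.56 CPM (SD, n = 4). The mutant mean, at 0.56 ± 0.12 CPM (SD, n = 4), was 19.6% of it, a log2 fold change of -2.31 (SE 0.24). The gene was chosen for this difference, so its values are a description and any call of it given below supports nothing. Within lane tag 2 the log2 fold change was -2.15, and leaving out any single library kept it between -2.44 and -2.19. The lowest library of each group was the library with the highest mitochondrial share, and without both of them the log2 fold change was -2.29. *Prph* is a short gene with 1999 exonic bases, no other gene's exons overlap it, and its low counts limit the precision of each single value.

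Promoter stretches are shown for the members whose mutant libraries all lay below all control libraries, *Prph* and *Synm*. They are the 250 bases before the RefSeq transcript start, 5′ to 3′, read from RefSeq on GRCm38.p6 (chr15:99054924-99055173, plus strand, and chr7:67759743-67759992, minus strand). Capitals mark the letters TATAAA, the core of a TATA box, and CANNTG, the E-box read by basic helix-loop-helix factors, searched on both strands.
Prph: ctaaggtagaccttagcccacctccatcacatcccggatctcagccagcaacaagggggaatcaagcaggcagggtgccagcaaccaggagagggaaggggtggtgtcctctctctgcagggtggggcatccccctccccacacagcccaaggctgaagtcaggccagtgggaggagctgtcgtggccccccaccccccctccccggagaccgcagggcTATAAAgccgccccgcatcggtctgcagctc
Synm: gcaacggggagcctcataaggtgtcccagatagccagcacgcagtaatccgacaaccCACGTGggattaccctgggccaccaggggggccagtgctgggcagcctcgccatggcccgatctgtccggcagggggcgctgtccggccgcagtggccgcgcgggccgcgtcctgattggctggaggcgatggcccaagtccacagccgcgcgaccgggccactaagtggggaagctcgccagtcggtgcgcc
The *Prph* stretch holds TATAAA once, beginning 31 bases before the start, and no CANNTG, whereas the *Synm* stretch holds CANNTG once and no TATAAA. RefSeq promoters matched 6 of the 9 members, *Prph*, *Ina*, *Vim*, *Nes*, *Gfap* and *Synm*. Of these, *Vim* also held TATAAA once, 32 bases before its start, and *Ina* also held CANNTG once, while *Nes* and *Gfap* held neither. Among 32851 promoters in the same window, 12.4% held TATAAA and 66.2% held CANNTG. A match is a description of the letters, not a site shown to be used.

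The other 8 members showed no gap of that size, and they pointed in different directions. *Nefl*, *Nefm*, *Vim* and *Gfap* had log2 fold changes above 0, and *Nefh*, *Ina*, *Nes* and *Synm* below 0, with adjusted p from edgeR between 0.143 and 0.822. At an adjusted p under 0.05, 1 of the 9 members was called, *Prph*, while 0.884% of all tested genes were called in either direction and 0.51% in the lower direction. The mutant libraries all lay below the control libraries for 2 members, *Prph* and *Synm*, as for 4.01% of all tested genes, and all above them for 0 members, against 3.99% of all tested genes. The median log2 fold change was -0.049 over the 9 members and 0.0043 over all tested genes. Nothing is read from these counts, since *Prph* entered the list through this comparison.

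**Figure D1:**
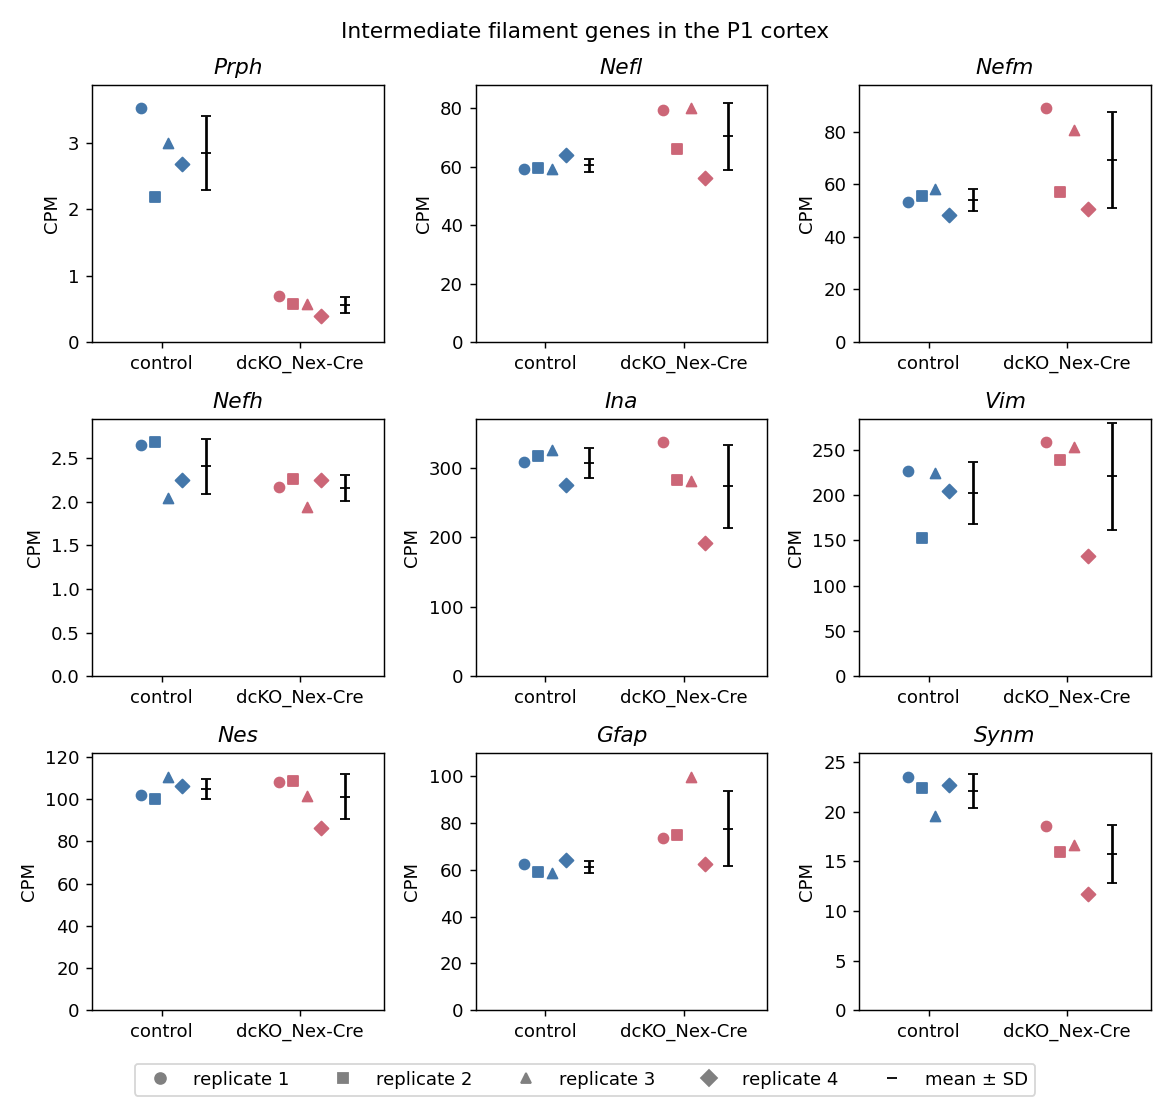
CPM of each of the 9 intermediate filament genes (vertical axes from 0) in each of the 4 control and 4 dcKO_Nex-Cre libraries, with marker shapes for the replicate number and the mean ± SD beside them. *Prph* and *Synm* are the 2 genes whose mutant points all lie below the control points, and replicate 4 is the lowest mutant point for 8 of the 9 genes.

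Among the neuronal subunits, *Ina*, which forms the early filament network of neurons, was the most abundant. *Ina* (ENSMUSG00000034336, chromosome 19, 47014698 to 47025327) was at 309, 317, 327 and 276 CPM in the control and at 337, 283, 282 and 193 CPM in the dcKO_Nex-Cre libraries. The groups overlapped, with the highest and the lowest of the 8 values both in the mutant, and the log2 fold change was -0.17 (SE 0.14). Without dcKO_Nex-Cre replicate 4 it was -0.028, and within lane tag 2 it was 0.015, on the other side of 0. *Ina* shares 456 of its exonic bases with *Nt5c2* on the opposite strand.

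The light and medium neurofilament genes lie next to each other on chromosome 14 and on opposite strands. *Nefl* (ENSMUSG00000022055, 68083863 to 68089095), which every neurofilament needs as its backbone, was at 59.4, 59.7, 59.3 and 63.9 CPM in the control and at 79.3, 66.1, 80.02 and 56.3 CPM in the mutant. Its control libraries were close together, with a coefficient of variation of 3.69%, and 3 of the 4 mutant libraries lay above all of them while replicate 4 lay below all of them. *Nefm* (ENSMUSG00000022054, 68082590 to 68124846), whose product carries a longer side arm, was at 53.2, 55.5, 58.2 and 48.4 CPM in the control and at 88.8, 57.1, 80.6 and 50.5 CPM in the mutant. Mutant replicates 1 and 3 stood above every control library, and replicates 2 and 4 lay within the control range. The log2 fold changes were 0.22 (SE 0.11) for *Nefl* and 0.37 (SE 0.16) for *Nefm*. For both genes, mutant replicates 1 and 3 lay above mutant replicates 2 and 4. However, 1108 exonic bases are annotated to both genes, 32.8% of the exonic length of *Nefl* and 19.2% of that of *Nefm*. The library kit does not mark strand, so reads in that stretch cannot be assigned by strand.

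The heavy subunit was scarce at this age. *Nefh* (ENSMUSG00000020396, chromosome 11, 4938754 to 4948064), the subunit of mature, thick axons, was at 2.66, 2.68, 2.04 and 2.25 CPM in the control and at 2.17, 2.26, 1.94 and 2.25 CPM in the mutant, from 40 to 75 counts per library. The groups overlapped and the log2 fold change was -0.16 (SE 0.17). Of the 9 members it varied least among the mutant libraries, with a coefficient of variation of 6.89%, at a mean of 53.5 counts against 38.8 for *Prph*.

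Ratios of counts within a library do not depend on the scaling between libraries. There were 0.182 to 0.231 *Nefl* reads per *Ina* read in the control and 0.234 to 0.292 in the mutant, so that the mutant range lay just above the control range. The closest values were 0.2313 in control replicate 4 and 0.2339 in dcKO_Nex-Cre replicate 2. They rest on 1451 and 1725 *Nefl* counts, and counting error alone is wider than the gap between them. *Nefm* reads per *Nefl* read spanned 0.757 to 0.981 (control) and 0.864 to 1.12 (mutant), and *Nefh* reads per *Nefl* read 0.0345 to 0.0450 and 0.0242 to 0.0399, both with overlap.

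Vimentin and nestin, the filament proteins of radial glia, did not separate the groups. *Vim* (ENSMUSG00000026728, chromosome 2, 13573927 to 13582826) was at 227, 153, 224 and 205 CPM in the control and at 258, 238, 253 and 133 CPM in the mutant. In each group a single library was far below the rest, control replicate 2 and dcKO_Nex-Cre replicate 4, which are the libraries with the highest mitochondrial share. The log2 fold change was 0.13 (SE 0.19) with all libraries and 0.20 without these 2. *Nes* (ENSMUSG00000004891, chromosome 3, 87971078 to 87980451) was at 102, 100.2, 111 and 106 CPM in the control and at 108, 109, 102 and 86.3 CPM in the mutant. Apart from dcKO_Nex-Cre replicate 4, the mutant values lay within the control range, and the log2 fold change of -0.049 (SE 0.08) turned to 0.023 without that library.
The 7 listed radial glia markers had a summed level of 2684 to 3205 CPM in the control and 2328 to 2897 CPM in the mutant. All 7 were tested, and 0 passed an adjusted p of 0.05 (edgeR), with 2 lower at an unadjusted p under 0.05. Log2 fold changes were below 0 for 4 of the 7, with a median of -0.013. *Fabp7* (1427 to 1702 CPM in the control, 900 to 1349 CPM in the mutant) and *Hopx* lay lower in every mutant library than in any control. The same was found for 4.01% of all tested genes. DESeq2's Wald test called *Fabp7* lower, as did edgeR without a filter and within lane tag 2. It was also called without dcKO_Nex-Cre replicate 4 and without the 2 libraries of highest mitochondrial share (edgeR). The part of radial glia in the values of *Vim* and *Nes* was not tested.

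*Gfap* (ENSMUSG00000020932, chromosome 11, 102887336 to 102900912), the filament gene of astrocytes, was at 62.2, 59.1, 58.7 and 64.3 CPM in the control and at 73.6, 74.6, 99.7 and 62.2 CPM in the dcKO_Nex-Cre libraries. Mutant replicates 1 to 3 were above every control library and replicate 4 was within the control range. The log2 fold change was 0.34 (SE 0.12). Within lane tag 2 it was 0.28, and leaving out single libraries gave 0.20 to 0.44.
Astrocyte markers were present in all libraries, with a summed level of 417 to 620 CPM in the control and 440 to 793 CPM in the mutant over 7 genes. Of these 7, 0 passed an adjusted p of 0.05 from edgeR or DESeq2 and 1 was higher at an unadjusted p under 0.05. The list pointed both ways, with log2 fold changes below 0 for 4 of the 7, *Aldh1l1* (-0.35), *Aqp4* (-0.10), *Gja1* (-0.12) and *S100b* (-0.48), and a median of -0.10. Without dcKO_Nex-Cre replicate 4, 2 of the 7 passed, *Slc1a2* and *Sox9*, both higher in the mutant (edgeR), against 7.73% of all tested genes. The 8 genes listed for reactive astrocytes summed to 26.7 to 40.8 CPM in the control and 32.2 to 53.4 CPM in the mutant. Of the 6 tested, 0 passed by edgeR or DESeq2, with 2 higher at an unadjusted p under 0.05 (edgeR). Log2 fold changes were below 0 for 1 of the 6, with a median of 0.33. *Osmr* spanned 3.50 to 4.88 CPM among controls and 5.16 to 6.69 CPM among mutants. Such a gap upwards was found for 3.99% of all tested genes. *Osmr* passed without dcKO_Nex-Cre replicate 4 and without the 2 libraries of highest mitochondrial share (edgeR). The part of these cells in the values of *Gfap* was not tested.

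*Synm* (ENSMUSG00000030554, chromosome 7, 67730160 to 67759742, minus strand), the large linking subunit, was the other member whose groups did not overlap. It was at 23.5, 22.4, 19.6 and 22.6 CPM in the control and at 18.6, 15.9, 16.7 and 11.7 CPM in the mutant. The control mean of 22.03 ± 1.72 CPM (SD, n = 4) stood against a mutant mean of 15.7 ± 2.92 CPM (SD, n = 4), with a log2 fold change of -0.48 (SE 0.13, adjusted p = 0.143 from edgeR). It was -0.35 within lane tag 2 and -0.36 without dcKO_Nex-Cre replicate 4, the lowest library. There were 0.0873 to 0.146 *Synm* reads per *Vim* read in the control and 0.0659 to 0.0877 in the mutant. These ranges meet, with the highest mutant value above the lowest control value. *Synm* shares 84 exonic bases with *Ttc23* and 426 with *Gm45102*, both on the opposite strand.

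**Figure D2:**
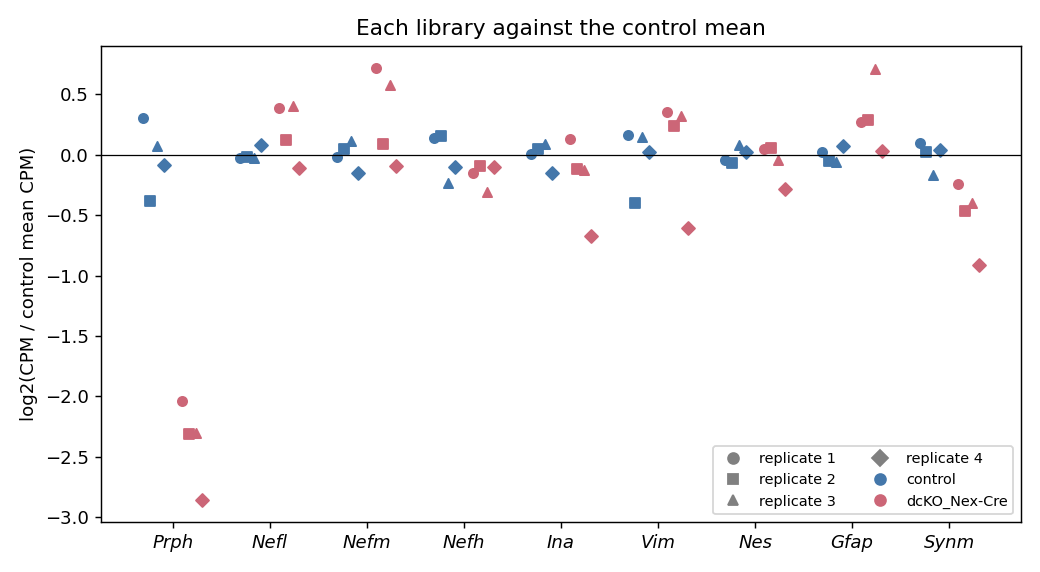
Log2 of each library's CPM over the control mean CPM for the 9 genes (vertical axis), with control points to the left and dcKO_Nex-Cre points to the right of each gene and marker shapes for the replicate number. The mutant points of *Prph* lie between -2.86 and -2.04, those of *Synm* between -0.92 and -0.25, and the other genes have mutant points on both sides of 0 or, for *Nefh* and *Gfap*, points that overlap those of the control.

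Replicate 4 of the dcKO_Nex-Cre cortex bears on most of these values. It was the lowest mutant library for 8 of the 9 members, and for 37.8% of all tested genes. Without it, 4 of the 8 members other than *Prph* had an adjusted p under 0.05 from edgeR, against 7.73% of all tested genes. These were *Nefl* (log2 fold change 0.32, adjusted p = 0.0381), *Nefm* (0.49, adjusted p = 0.0496), *Gfap* (0.44, adjusted p = 0.0308) and *Synm* (-0.36, adjusted p = 0.0425). Without both libraries of high mitochondrial share, 3 of these 8 had an adjusted p under 0.05, *Nefl*, *Gfap* and *Synm*, against 11% of all tested genes. With all libraries 0 of the 8 were called by edgeR, with 1 lower and 2 higher at an unadjusted p under 0.05, against 13.6% of all tested genes in either direction. The count was also 0 within lane tag 2 (1.48% of all tested genes), by DESeq2's Wald test (1.18%) and without the 2 libraries of highest *Isl1* (0.246%).

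Levels were compared between genes as CPM per kilobase of exon, over the exonic bases of all annotated transcripts of a gene. In the control the order was *Ina* at 94.8 ± 6.78 (SD, n = 4), *Vim* at 42.7 ± 7.21, *Nefl* at 17.9 ± 0.66, *Nes* at 16.3 ± 0.74, *Gfap* at 14.5 ± 0.63, *Nefm* at 9.31 ± 0.72, *Synm* at 2.78 ± 0.22, *Prph* at 1.43 ± 0.28 and *Nefh* at 0.60 ± 0.08. Neighbours in this order did not overlap over the 4 control libraries. *Ina* was thus 66.5 times as high as *Prph*. In the mutant the ranges of neighbours overlapped from *Nefl* down to *Nefm*, and the order changed at 2 places. *Gfap* (18.4 ± 3.75) lay above *Nes* (15.8 ± 1.64) in all 4 mutant libraries and below it in all 4 controls. *Prph* (0.28 ± 0.06) lay below *Nefh* (0.54 ± 0.04) in all 4 mutant libraries and above it in all 4 controls, which made it the lowest of the family. Isoform use was not measured, so the length of exon that was transcribed in each gene is not known.

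**Figure D3:**
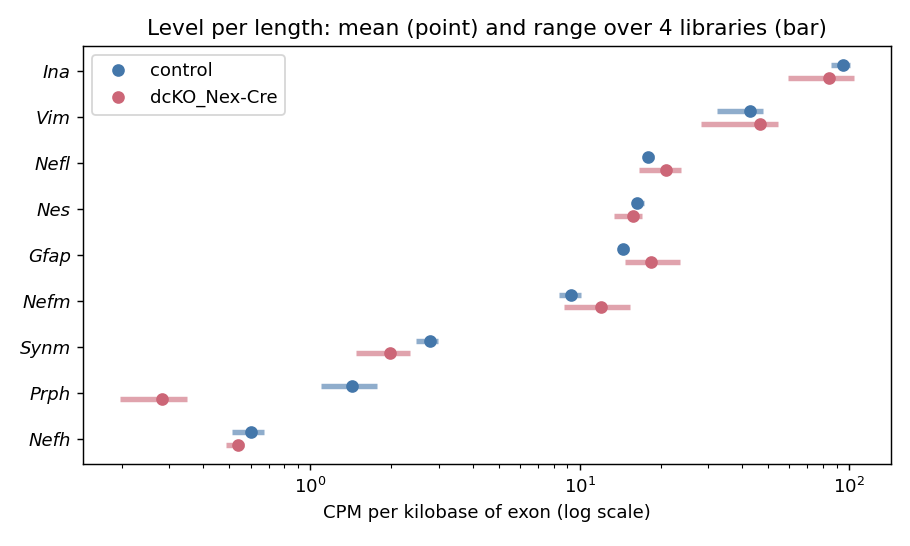
CPM per kilobase of exon on a log axis for the 9 genes, ordered by the control mean, with points for group means and bars for the range over the 4 libraries of a group. The control bars of neighbouring genes do not overlap, and *Prph* falls from just above *Nefh* in the control to the lowest place in the dcKO_Nex-Cre cortex.

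Peripherin is a classical marker of peripheral and cranial neurons, so the genes of those neurons were read beside it. Of 10 listed markers, *Phox2a*, a transcription factor of autonomic and cranial motor neurons, was at 0 in all 4 control libraries and in 3 of the 4 mutant libraries. The 10 genes together reached 6.46 to 23.6 CPM in the control and 4.71 to 39.9 CPM in the mutant, and most of that was *Isl1*, a gene also used by the striatum, which reached 20.3 CPM in control replicate 2 and 35.3 CPM in mutant replicate 2, against 3.26 to 5.65 CPM elsewhere. Of the 4 tested, 0 passed an adjusted p of 0.05 (edgeR or DESeq2) or an unadjusted p of 0.05 (edgeR). For 1 of the 4, every mutant library lay above every control library, as for 3.99% of all tested genes. Log2 fold changes were below 0 for 1 of the 4, with a median of 0.33. Without the 2 libraries of highest *Isl1*, the log2 fold change of *Prph* was -2.41. The part of such neurons in the value of *Prph* was not tested. Markers of Cajal-Retzius cells, early-born neurons of the marginal zone, summed to 405 to 846 CPM in the control and 491 to 673 CPM in the mutant over 5 genes, of which 0 passed an adjusted p (edgeR or DESeq2) or an unadjusted p of 0.05 (edgeR).

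The genes whose values over the 8 libraries were most like those of *Prph* were *Vegfd*, *6530403H02Rik*, *Krt12*, *Mas1* and *AU023762*. Likeness was the root mean square difference of log2 CPM after centring each gene on its mean, and it was 0.35 for *Vegfd*, 0.36 for *6530403H02Rik*, 0.39 for *Krt12*, 0.40 for *Mas1* and 0.44 for *AU023762*. All 5 were scarce genes with log2 fold changes between -2.22 and -1.64, so the likeness rests on the difference between the groups. *Vegfd*, a growth factor of lymphatic vessels, spanned 1.86 to 2.56 CPM among controls and 0.51 to 1.07 CPM among mutants. *Mas1*, a receptor of the angiotensin system, spanned 0.93 to 2.91 CPM among controls and 0.34 to 0.72 CPM among mutants. Within the family *Synm* came closest to *Prph*, with a difference of 0.86 and rank 318 among all tested genes.

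The wider intermediate filament family was read from a list of 21 genes, the nuclear lamins, desmin, the lens filament genes, keratins and 2 relatives. Of these, 10 had enough counts to be tested, and the median log2 fold change was -0.011. At an adjusted p under 0.05 from edgeR, 1 was lower and 0 were higher, while 0.51% of all tested genes were lower and 0.375% higher. *Krt12*, a keratin of the corneal epithelium, was at 1.24 to 1.88 CPM in the control and at 0.11 to 0.45 CPM in the mutant, with a log2 fold change of -2.22 (SE 0.31, adjusted p = 0.0143 from edgeR). It shares 54.4% of its exonic length with the antisense gene *A830036E02Rik*, which had 140 counts on average against 22.1 for *Krt12*, so that reads of the 2 genes cannot be told apart there. It was not called without control replicate 3 or 4 or without the 2 libraries of highest *Isl1*. The lamins had values on both sides of 0. *Lmna*, the A-type lamin of differentiated nuclei, had a log2 fold change of -0.32 (SE 0.11, adjusted p = 0.256 from edgeR), and *Lmnb1*, a B-type lamin, 0.21 (SE 0.10, adjusted p = 0.398 from edgeR). *Krt10*, a keratin of differentiated epidermis, had a log2 fold change of -0.34 (SE 0.17, adjusted p = 0.389 from edgeR). The other 11 genes of the list, 10 of them keratins, were too low to be tested.

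Of 17 genes that link, move, modify or degrade intermediate filaments, 16 were in the files and 14 were tested. In this group 0 genes passed an adjusted p of 0.05 from edgeR, while 1 was lower and 2 were higher at an unadjusted p under 0.05, as were 13.6% of all tested genes in either direction, and the median log2 fold change was -0.0023. *Cryab*, a small heat shock protein that keeps filaments from aggregating, was at 7.88 to 11.5 CPM in the control and at 4.98 to 6.69 CPM in the mutant without overlap, with a log2 fold change of -0.70 (SE 0.16, adjusted p = 0.0769 from edgeR). DESeq2's Wald test gave it an adjusted p of 0.00822. Groups without overlap in this direction were found for 4.01% of all tested genes. *Cryab* shares 17.0% of its exonic length with *Hspb2* on the opposite strand, which had 7.1 counts on average against 181.5 for *Cryab*. *Dst*, which codes for a plakin that ties neurofilaments to actin and microtubules, had a log2 fold change of 0.37 (SE 0.14, adjusted p = 0.286 from edgeR). *Dync1h1*, the heavy chain of the motor that carries neurofilaments towards the cell body, had a log2 fold change of 0.26 (SE 0.15, adjusted p = 0.453 from edgeR). Without dcKO_Nex-Cre replicate 4, 4 genes of the list had an adjusted p under 0.05 (edgeR; 7.73% of all tested genes), *Cryab* lower and *Dst*, *Dync1h1* and *Cdk5r1* higher.

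**Figure D4:**
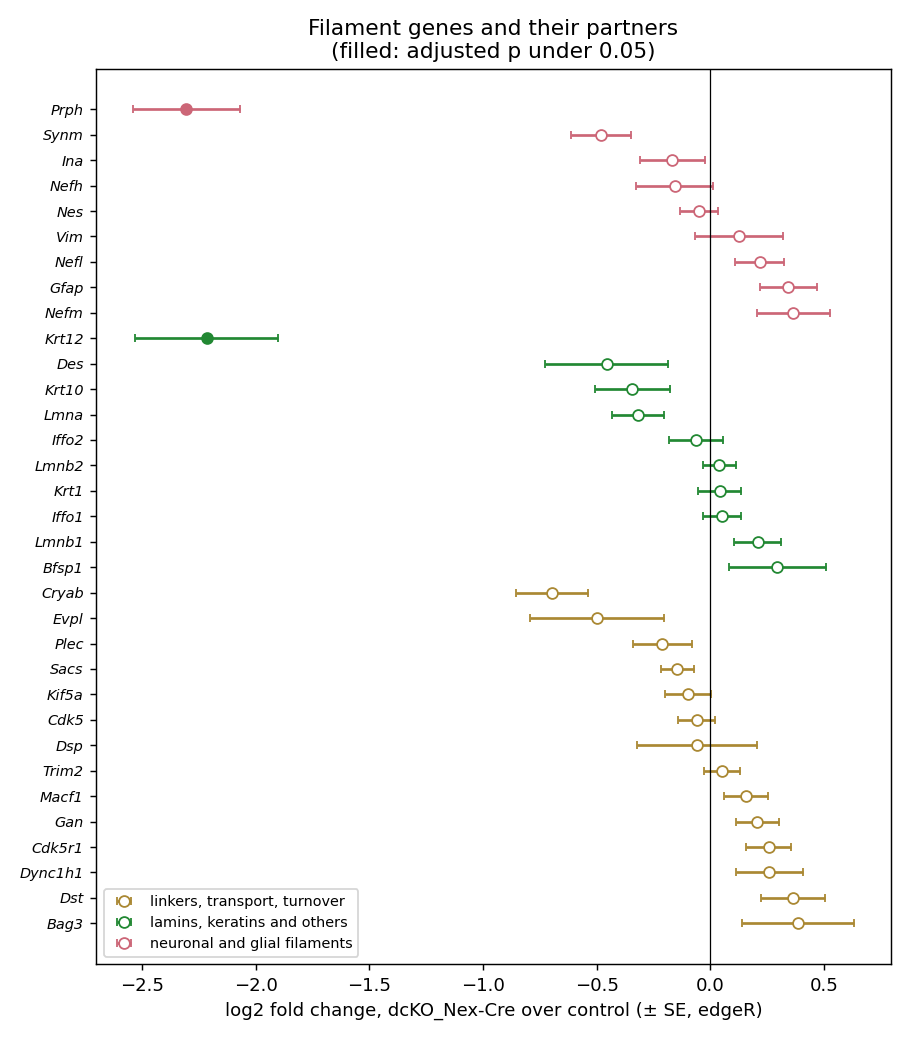
Log2 fold change of the dcKO_Nex-Cre over the control cortex (horizontal axis, points ± SE from edgeR) for the 9 members, 10 further intermediate filament genes and 14 linker, transport and turnover genes that were tested. *Prph* at -2.31 and *Krt12* at -2.22 are the 2 filled points, those with an adjusted p under 0.05, and the other genes lie between -0.70 and 0.39.

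Further marker lists showed calls for single genes at an adjusted p under 0.05. All 5 listed oligodendrocyte precursor genes were tested, and 0 had a log2 fold change below 0, with a median of 0.40. At an unadjusted p under 0.05, 4 were higher (edgeR), against 13.6% of all tested genes in either direction. Their sum was 172.7 to 252.0 CPM in the control and 252.1 to 307.8 CPM in the mutant. The oligodendrocyte precursor gene *Cspg4* (log2 fold change 0.56, adjusted p = 0.0355) was higher in the mutant, as were *C1qb* of microglia (0.46, adjusted p = 0.0422) and *Ppp1r1b* of the striatum (0.96, adjusted p = 0.04), all from edgeR. The 5 striatal genes summed to 51.2 to 77.0 CPM in the control and 65.2 to 170 CPM in the mutant. Their median log2 fold change was 0.45, with 1 of the 5 below 0. The 5 microglial genes summed to 86.3 to 101 CPM in the control and 87.7 to 117 CPM in the mutant. Their median was 0.20, also with 1 of the 5 below 0. With the 8 libraries left out singly, *Cspg4* was called 1 time, *C1qb* 1 time and *Ppp1r1b* 2 times, and none of these 3 was called with the replicate number as a block. *Cspg4*, *C1qb* and *Neurod6* were also not called without the 2 libraries of highest *Isl1*, nor *C1qb* within lane tag 2, nor *Ppp1r1b* by limma-voom, without a filter or without the 2 libraries of highest mitochondrial share. Another microglial gene, *P2ry12*, lay lower in every mutant library than in any control (log2 fold change -0.57, SE 0.12, adjusted p = 0.0596 from edgeR), and DESeq2's Wald test and the edgeR fit without a filter called it. A gap in this direction was found for 4.01% of all tested genes. The lists of interneurons, endothelium and pericytes, meninges, choroid plexus and blood held 0 genes with an adjusted p under 0.05, with 1 lower interneuron gene, 1 lower endothelial or pericyte gene and 1 higher meningeal gene at an unadjusted p under 0.05 (edgeR). DESeq2's Wald test called 1 gene of these lists, *Sst* of interneurons, lower. Choroid plexus genes differed most between libraries of one group, at a sum of 32.5 to 1347 CPM in the control and 16.3 to 579 CPM in the mutant. The part of these cells in the values of the 9 members was not tested.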

How the data were processed

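RNA-seq counts of 8 P1 cortex libraries, 4 control and 4 dcKO_Nex-Cre, were used. The files deposited by the authors hold unnormalized counts for each Ensembl gene. Total RNA was prepared with an Illumina TruSeq v2 kit, and the submitters' processing notes name mm10; the aligner, counter, annotation and strand setting are not given in the sources used here. Groups came from sample titles; Nex-Cre and the genotypes came from the paper. Of 48709 genes, 48349 matched GENCODE M21 (GRCm38) by Ensembl identifier, which gave symbols, positions and exonic lengths.

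In R 4.3.3, edgeR 4.0.16 kept 16287 genes by filterByExpr, scaled them by TMM and compared the groups by the robust quasi-likelihood test, two-sided, without covariates, with Benjamini-Hochberg adjustment over all tested genes at 0.05. Total counts of 17958641 to 35191912 per library set the counting error. Libraries of a group differed beyond counting noise (chi-square per degree of freedom at least 3.77). Log2 CPM used a prior count of 2. The members, lists and tests were chosen with earlier results of these data known. All 9 members were named, as well as called genes of each list, the 3 largest changes with at least 100 counts in the filament and linker lists, and the 5 genes most like *Prph*; further genes of the lists were named after their values were seen. Alternatives were DESeq2 1.42.0 size factors, its Wald test, limma-voom (limma 3.58.1), other filters, the replicate number as a block, lane tag 2 alone and leaving out libraries. The test was checked on simulated data. The value of 1 listed marker gene is not reported here. Figures used matplotlib 3.10.9.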

Additional observations from a re-analysis of the deposited data

Results flagged for a closer look

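Libraries far from the other 3 of their group were looked for in 48 sets of 4 values, which cover each named gene, the depth and the share of mitochondrial counts. There were 3 such libraries, where chance gives about 1 in 20 sets. Control replicate 4 had 63.9 CPM of *Nefl*, while the other controls had 59.3 to 59.7 CPM. Mutant replicate 4 had 133 CPM of *Vim*, while the other mutants had 238 to 258 CPM. Mutant replicate 2 had 88.3 CPM of *Ppp1r1b*, while the other mutants had 46.1 to 52.1 CPM.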

How the results depend on the processing

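*Prph*, chosen for its difference, had log2 fold changes from -2.44 to -2.15 over the 16 alternatives that gave it a value; requiring 10 counts in every library removed it. The signs of *Nefl*, *Nefm*, *Nefh*, *Gfap* and *Synm* held in all 17 alternatives. Signs turned for *Ina* within lane tag 2 (0.015), for *Vim* without the 2 libraries of highest *Isl1* (-0.030), and for *Nes* without dcKO_Nex-Cre replicate 4 (0.023, in a range of -0.083 to 0.023 over single libraries left out), within lane tag 2 (0.052) and without the 2 libraries of highest mitochondrial share (0.0030). The numbers of lower and higher genes among all genes were 83 and 61, against 199 and 155 with DESeq2's Wald test, 150 and 109 without a filter, 108 and 140 within lane tag 2, 898 and 896 without the 2 libraries of highest mitochondrial share, and 21 and 19 without the 2 libraries of highest *Isl1*; the last 2 alternatives were chosen after seeing the data. Leaving out each library gave 9 to 619 lower and 9 to 659 higher genes, with 619 and 659 without dcKO_Nex-Cre replicate 4. The replicate number as a block gave 33 and 21; control and mutant libraries of the same number correlated at -0.14 to 0.13 (log2 CPM) after group means were removed, so the numbers were not taken to pair them. The further filament genes had 1 call, and 0 with at least 10 counts in every library and without the 2 libraries of highest *Isl1*; 0 to 1 were called when each library was left out, with 0 without control replicates 3 or 4. The linker group had 0 calls, 1 with DESeq2's Wald test (1.18% of all tested genes) and 1 without a filter. It had 5 without the 2 libraries of highest mitochondrial share (11% of all tested genes). Leaving out each library gave it 0 to 4 calls, with 4 without dcKO_Nex-Cre replicate 4 (7.73% of all tested genes). The cause of these shifts was not tested. Depth limits the precision of scarce genes such as *Prph*, at 7 to 77 counts per library, and *Krt12*, at 2 to 45.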

Other observations

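The ratio of *Prph* to *Ina* counts was 0.00206, 0.00203, 0.00205 and 0.00204 in dcKO_Nex-Cre replicates 1 to 4, and 0.0114, 0.00690, 0.00919 and 0.00973 in control replicates 1 to 4. With 7 to 24 *Prph* counts per mutant library, counting error alone is wider than the spread between these 4 mutant ratios.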
